A study of Homo sapiens with 12 samples.

Results

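NF-kB is a family of dimeric transcription factors, and 10 genes of its core circuit are described here: the subunits NFKB1, RELA, NFKB2 and RELB, the cytoplasmic inhibitors NFKBIA, NFKBIB and NFKBIE, and the feedback targets BIRC3, TNFAIP3 and ZC3H12A. They were chosen by gene symbol, for belonging to this pathway and not by a cut on a measured value. The choice was made with earlier results of these data known. All 10 were among the 13001 genes listed in the deposited tables, and the filter on low counts removed none of the 13001. The cells were LNCaP clone FGC, an androgen-sensitive prostate cancer line from a lymph node metastasis, at passage 8 and grown in RPMI 1640 with fetal bovine serum. They were transfected by Lipofectamine 2000 with an empty vector (EV), LSD1, LSD1+8a or SRRM4, with 3 polyA RNA-seq libraries for each, and every group, the control included, had thus been through a plasmid transfection. LSD1 is the histone demethylase encoded by KDM1A, LSD1+8a is its neural splice form with the microexon 8a, and SRRM4 is a neural splicing factor. Whether replicate libraries derive from independent cultures is not said in the labels, so p-values reflect only library-to-library spread, possibly technical, and 1 cell line does not stand for others.

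As background, NF-kB dimers are held in the cytoplasm by IkB proteins. In the canonical route the IkB kinase complex marks the IkB proteins for degradation, which frees dimers of RELA and the p50 product of NFKB1. In the non-canonical route the kinase NIK, encoded by MAP3K14, drives the processing of the NFKB2 precursor p100 to p52, which pairs with RELB. NFKBIA, NFKBIE, NFKB2, RELB, BIRC3 and TNFAIP3 are themselves transcriptional targets of NF-kB, so the circuit carries its own feedback. RNA levels measure neither the processing nor the nuclear entry of these proteins.

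The control regions of members that rose are shown with that of a member that did not, NFKB1, because they let the kappa B motif be seen beside the RNA values that follow. RefSeq promoter windows on GRCh38.p14, each from 250 bases before to 50 bases after an annotated start, were matched by symbol for 8 of the 10 members (13 windows), all but RELB and NFKBIE. Both strands were searched for the kappa B consensus, a motif of 10 bases with degenerate positions, and overlapping matches were joined. At least 1 match was found for 6 of the 8 members, against 17% of the 9040 measured genes that had a window. Per window the share was 11.3% of all 35116 windows of this length and 13.1% of the 13213 windows of measured genes. Several of the 10 genes are textbook NF-kB targets, and a match describes letters, not binding. The 250 bases before the start are printed 5′ to 3′ in the direction of transcription, with the matches in capitals, for BIRC3 (BIRC3_C), NFKB2 at the last of its starts (NFKB2_C), TNFAIP3 (TNFAIP3_C), NFKBIA (NFKBIA_C) and NFKB1 at the first of its starts (NFKB1_C). The stretches lie at chr11:102317234-102317483 (BIRC3, plus strand), chr10:102395455-102395704 (NFKB2, plus strand), chr6:137867009-137867258 (TNFAIP3, plus strand), chr14:35404750-35404999 (NFKBIA, minus strand) and chr4:102501109-102501358 (NFKB1, plus strand).
BIRC3_C: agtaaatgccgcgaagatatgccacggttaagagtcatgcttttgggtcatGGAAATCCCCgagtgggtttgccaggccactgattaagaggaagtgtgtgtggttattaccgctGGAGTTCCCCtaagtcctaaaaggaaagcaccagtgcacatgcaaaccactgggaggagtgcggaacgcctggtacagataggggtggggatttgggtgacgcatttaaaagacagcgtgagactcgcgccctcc
NFKB2_C: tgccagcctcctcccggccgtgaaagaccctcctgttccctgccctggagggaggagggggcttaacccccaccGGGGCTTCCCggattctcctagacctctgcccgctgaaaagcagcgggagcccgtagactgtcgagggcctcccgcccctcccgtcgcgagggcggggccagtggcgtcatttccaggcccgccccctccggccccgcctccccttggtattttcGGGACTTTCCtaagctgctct
TNFAIP3_C: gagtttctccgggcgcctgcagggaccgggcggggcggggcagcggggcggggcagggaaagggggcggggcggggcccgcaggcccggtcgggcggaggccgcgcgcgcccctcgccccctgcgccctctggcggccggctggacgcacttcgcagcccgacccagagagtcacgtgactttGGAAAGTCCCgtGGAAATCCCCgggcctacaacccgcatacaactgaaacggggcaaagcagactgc
NFKBIA_C: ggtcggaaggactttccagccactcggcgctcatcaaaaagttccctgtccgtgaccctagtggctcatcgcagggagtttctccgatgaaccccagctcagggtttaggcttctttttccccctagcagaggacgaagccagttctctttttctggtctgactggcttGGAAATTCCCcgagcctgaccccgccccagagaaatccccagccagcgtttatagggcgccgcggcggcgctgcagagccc
NFKB1_C: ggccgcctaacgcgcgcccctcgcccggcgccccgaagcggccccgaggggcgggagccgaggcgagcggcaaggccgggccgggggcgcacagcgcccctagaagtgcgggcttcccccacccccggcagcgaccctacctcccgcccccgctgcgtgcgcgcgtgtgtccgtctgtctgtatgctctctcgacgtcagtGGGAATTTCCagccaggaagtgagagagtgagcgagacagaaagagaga

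BIRC3 held 2 matches, GGAAATCCCC beginning 199 bases before its start and GGAGTTCCCC beginning 135 bases before it. NFKB2 held matches at the last 2 of its starts: GGGGCTTCCC at 176 and GGGACTTTCC at 21 bases before the last, and GGGAATTCCCC at 107 and GGGGCTTTCC at 78 bases before the other. TNFAIP3 carried GGAAAGTCCC and GGAAATCCCC 67 and 55 bases before its start, and NFKBIA carried GGAAATTCCC at 81. NFKB1 carried GGGAATTTCC at 49, and NFKBIB carried GGGAATTTCCC 28 bases before the later of its starts and GGGGGGCCCC from 38 bases after it. The letters of the motif were not found in the 2 RELA windows or the ZC3H12A window, which says nothing of a factor binding elsewhere. Windows with 2 or more matches made up 2.26% of those of measured genes. That share counts matches before overlapping ones were joined, unlike the stretches listed here.

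Per transcript length the members spanned a wide range of levels in these cells. In the EV libraries RELA was highest, with 56.1 ± 1.21 TPM (SD, n = 3), a unit that corrects for transcript length, followed by NFKBIA (50.3 ± 3.04), ZC3H12A (40.7 ± 0.79), NFKB2 (31.5 ± 0.44) and NFKB1 (30.2 ± 2.56). NFKBIB (12.4 ± 0.956) and NFKBIE (4.47 ± 0.44) were lower. TNFAIP3 (2.50 ± 1.04), BIRC3 (2.41 ± 0.366) and RELB (2.23 ± 0.156) were lowest and could not be ordered, since the libraries of each overlapped those of the next. NFKB2 and NFKB1 overlapped as well. The feedback targets thus spanned the range, with ZC3H12A above NFKB1, and RELB, BIRC3 and TNFAIP3 had 43 to 120 counts a library with EV.

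**Figure D1:**
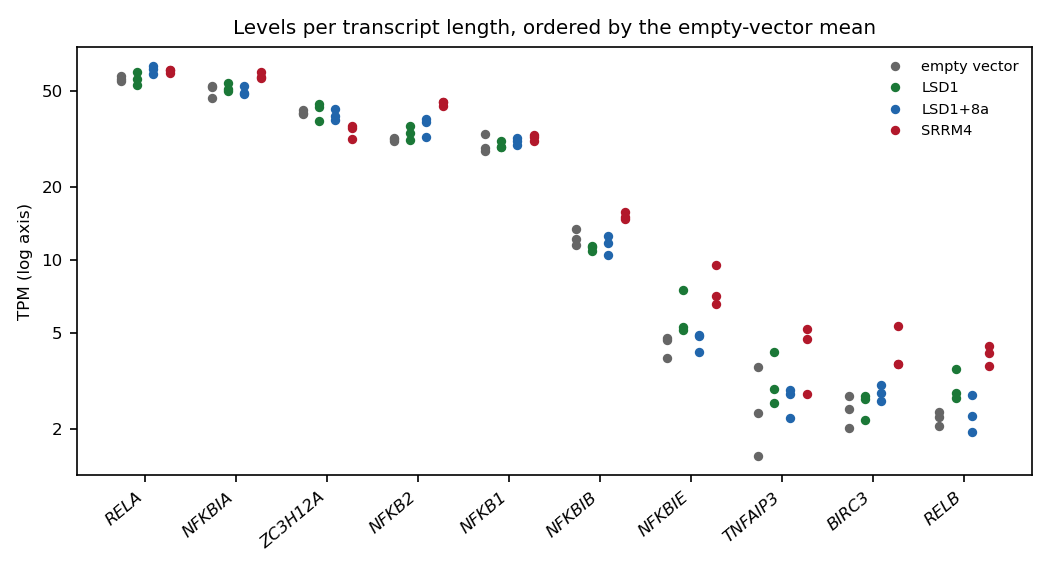
Level of each of the 10 genes in TPM (log axis) in each of the 12 libraries, 1 point a library, coloured by transfected plasmid and ordered by the EV mean. RELA and NFKBIA lead and TNFAIP3, BIRC3 and RELB overlap at the bottom in EV; in the SRRM4 libraries NFKB2 (44.5 TPM) lies above ZC3H12A (34.1 TPM).

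With SRRM4 against EV, most of the 10 members were called changed in the main edgeR fit, and fewer by DESeq2. Of the 10 members, 6 were called higher (BIRC3, RELB, TNFAIP3, NFKB2, NFKBIE and NFKBIA) and 1 lower (ZC3H12A), by edgeR's quasi-likelihood test, with p adjusted across all 13001 genes by Benjamini-Hochberg and a threshold of 0.05. Among all genes 4.47% were called higher and 3.22% lower, or 581 and 418 genes, a split that became 497 and 561 with upper-quartile scaling. The median log2 fold change was 0.30 over the members and 0.00 over all genes. The members were chosen with earlier results of these data known, which limits these comparisons with all genes. The count of members higher was 3 by DESeq2 and ranged from 3 to 6 when 1 library was left out. In contrast, BIRC3, RELB and NFKB2 passed the threshold in each of the 17 alternatives run. Some of the 17 are near copies of the main fit, and the run without a filter repeated it. Levels below are TMM-scaled CPM, and fold changes are log2 with their standard errors.

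Among the subunits, both genes of the non-canonical pair rose, and neither gene of the canonical pair passed the test. NFKB2 had 58.6, 60.2 and 59.4 CPM in the EV libraries and 81.0, 82.0 and 81.9 with SRRM4. The groups lay far apart relative to their spread, at 59.4 ± 0.828 and 81.6 ± 0.549 CPM (SD, n = 3). The change was 0.46 ± 0.05, or 1.37-fold (edgeR adjusted p = 1.42e-08). RELB, which needs p52 or p50 as its partner on DNA, had 3.63, 3.28 and 3.27 CPM with EV and 5.90, 5.88 and 6.77 with SRRM4. Every SRRM4 library was above every EV library, and the change was 0.86 ± 0.16, or 1.82-fold (edgeR adjusted p = 0.000361). This rests on 43 to 46 counts a library with EV and 64 to 74 with SRRM4.

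NFKB1 had 84.3, 79.3 and 82.3 CPM with EV and 84.7, 82.5 and 82.7 with SRRM4. These groups overlapped, and the change of 0.02 had a 95% interval of -0.06 to 0.11 (edgeR adjusted p = 0.808). RELA, the main activating subunit of the canonical dimer, had 97.1, 96.7 and 94.4 CPM with EV and 96.1, 99.5 and 98.9 with SRRM4. Its change of 0.03, with an interval of -0.05 to 0.11, did not pass the test (edgeR adjusted p = 0.723). At 898 to 1298 counts a library in these groups, both genes were among the deepest measured members, and the upper bounds lie under the change of NFKB2.

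**Figure D2:**
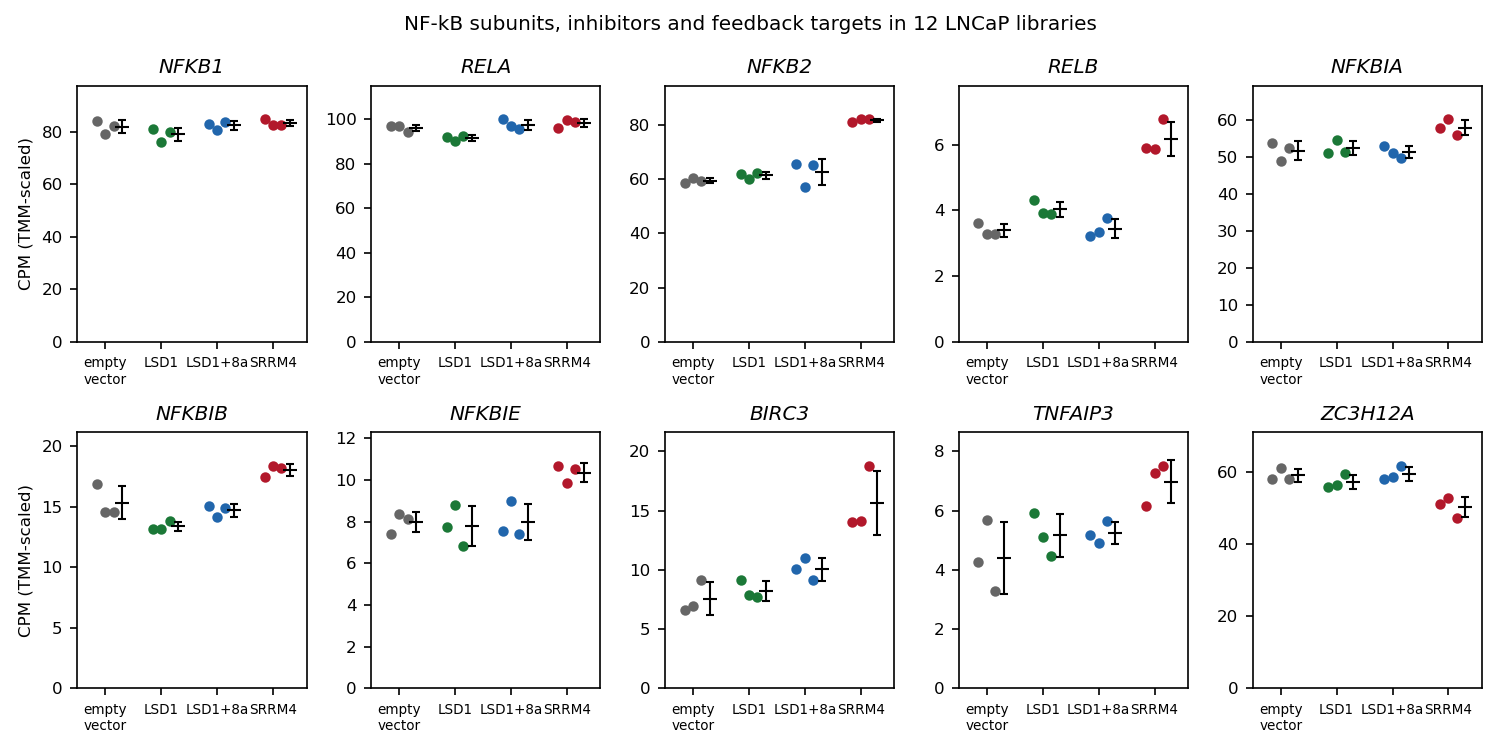
TMM-scaled CPM of the 10 genes in every library (points; 3 for each of EV, LSD1, LSD1+8a and SRRM4), with the group mean and SD as a black bar; each vertical axis starts at 0. The SRRM4 points of BIRC3, RELB, TNFAIP3, NFKB2, NFKBIE, NFKBIA and NFKBIB lie above all EV points and those of ZC3H12A below them.

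Of the 3 inhibitors, which bind NF-kB dimers and keep them out of the nucleus, NFKBIA and NFKBIE rose by small amounts. NFKBIA, the classical IkB-alpha, had 53.9, 49.0 and 52.6 CPM with EV and 57.9, 60.3 and 56.0 with SRRM4. The groups did not overlap, and the change was 0.16 ± 0.05 (edgeR adjusted p = 0.0450). NFKBIE, or IkB-epsilon, had 7.42, 8.35 and 8.14 CPM with EV and 10.7, 9.83 and 10.5 with SRRM4. Its groups were apart as well, with a change of 0.38 ± 0.12 (edgeR adjusted p = 0.0487). Both calls sat at the threshold: the adjusted p rose to 0.196 for NFKBIA and 0.231 for NFKBIE under DESeq2. Leaving out EV replicate 2 or 3 or any of the 3 SRRM4 libraries ended the call of NFKBIA (adjusted p from 0.0517 to 0.209), and leaving out any of the 6 libraries ended that of NFKBIE (0.0663 to 0.173). NFKBIB, or IkB-beta, had 16.9, 14.5 and 14.5 CPM with EV and 17.4, 18.4 and 18.2 with SRRM4. Its groups did not overlap, but the change of 0.23 ± 0.09 missed the threshold (edgeR adjusted p = 0.0924). Of 17 alternatives it passed in 1, without EV replicate 1, its highest EV library (adjusted p = 0.0482).

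The feedback targets moved in both directions. BIRC3, the inhibitor of apoptosis cIAP2 and a ubiquitin ligase of the TNF receptor complex, had 6.63, 6.93 and 9.13 CPM with EV and 14.1, 14.2 and 18.8 with SRRM4. The lowest SRRM4 library was above the highest EV library, and replicate 3 was the highest in both groups. At 7.56 ± 1.37 and 15.7 ± 2.69 CPM this was the largest change among the 10 on the CPM scale, 1.05 ± 0.13 or 2.07-fold (edgeR adjusted p = 5.41e-07). On the TPM scale it went from 2.41 to 4.27, and the fitted change (0.62 and 0.79 with pseudocounts of 1 and 0.1) lay below that of RELB (0.65 and 0.84). TNFAIP3, the ubiquitin-editing enzyme A20 that shuts off signalling, had 4.26, 5.66 and 3.27 CPM with EV and 6.16, 7.26 and 7.51 with SRRM4. The groups were close but did not overlap, and the change was 0.66 ± 0.17 (edgeR adjusted p = 0.00964). That call ended without EV replicate 3 (adjusted p = 0.0934) or SRRM4 replicate 3 (0.0557), and on the TPM scale the lowest SRRM4 library (2.81) lay below the highest EV library (3.61).

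ZC3H12A, the RNase Regnase-1 that degrades inflammatory transcripts, went the other way. It had 58.2, 61.3 and 58.2 CPM with EV and 51.3, 52.8 and 47.3 with SRRM4, so every SRRM4 library was below every EV library. The change was -0.23 ± 0.05 (edgeR adjusted p = 0.00312). It was called in 15 of 17 alternatives and missed the threshold in both fits on TPM (adjusted p = 0.0954 in each). By overlap alone, 7 members had SRRM4 libraries wholly above EV and 1 wholly below, against 13% and 12.3% of all genes.

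LSD1+8a and LSD1 gave no called change in any of the 10 genes. With LSD1+8a against EV the count was 0 of 10 by edgeR, DESeq2 and limma-voom, where 0.346% of all genes were called in either direction. At an unadjusted p under 0.05 there was 1, BIRC3, with 10.0, 11.0 and 9.10 CPM against 6.63, 6.93 and 9.13 with EV. The lowest LSD1+8a library fell just under the highest EV library, and the change of 0.41 ± 0.13 had an adjusted p of 0.393 by edgeR and a 95% interval of 0.15 to 0.67. By p BIRC3 ranked 152 among the 13001 genes. Many genes lay under 0.05, since an edgeR unadjusted p of 0.0438 stood at rank 772 in this comparison. For NFKB2 the interval was -0.02 to 0.17 and for RELB -0.32 to 0.36, so a change of the size seen with SRRM4 lay outside both. These intervals are from counts. In TPM NFKB2 ran from 32.3 to 38.3 with LSD1+8a and from 31.0 to 31.9 with EV. Over the 17 alternatives its change ran from 0.04 to 0.19, past the threshold in 0. With LSD1 against EV the count was again 0 of 10 by the same tools, where 0.1% of all genes were called. The member with an unadjusted p under 0.05 was NFKBIB, at 13.2, 13.2 and 13.8 CPM, all below EV (-0.19 ± 0.09, edgeR adjusted p = 0.817). By p it ranked 619 among the 13001 genes. RELB lay wholly above EV at 4.31, 3.92 and 3.88 CPM (0.25 ± 0.17, edgeR adjusted p = 0.901), and RELA wholly below it at 92.1, 90.2 and 92.5 CPM (-0.07, edgeR adjusted p = 0.877). Of all 13001 genes, 713 lay wholly above EV with LSD1 and 808 wholly below it.

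The microexon contrast, LSD1+8a against LSD1, also gave 0 of 10 by edgeR, DESeq2 and limma-voom, where 0.323% of all genes were called in either direction. BIRC3 (0.29 ± 0.13, 95% interval 0.02 to 0.55) and RELA (0.09 ± 0.04, interval 0.01 to 0.17) were higher at an unadjusted p under 0.05, with edgeR adjusted p of 0.774 and 0.705. These 2 transfections differed in dose as well as in sequence: KDM1A stood at 515 to 587 CPM with LSD1 and 1983 to 2608 with LSD1+8a, against 93.7 to 95.2 with EV. Their effects and that dose cannot be told apart in this design.

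**Figure D3:**
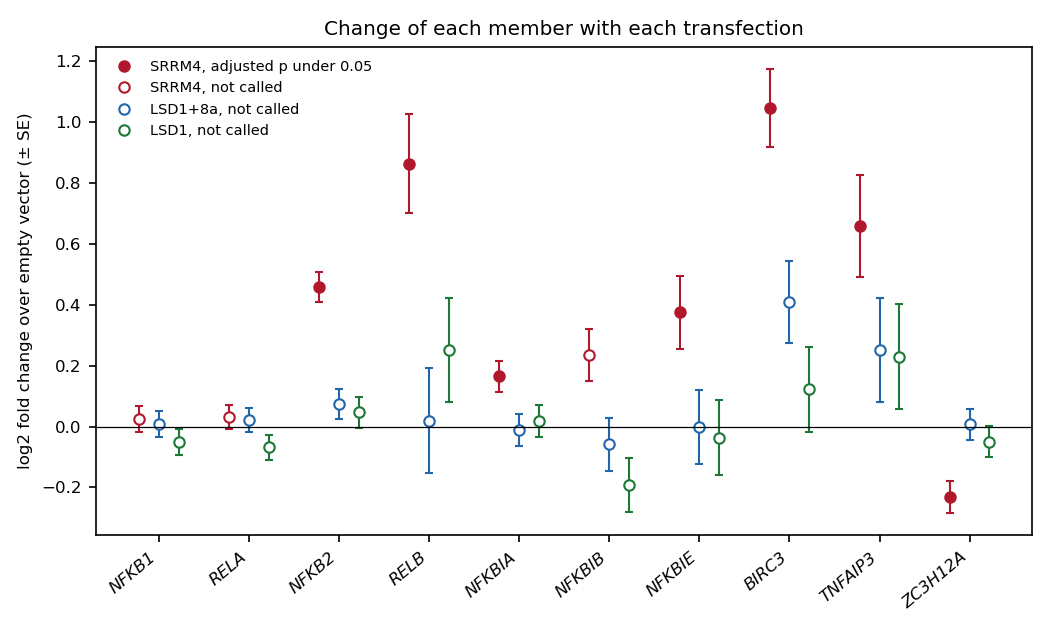
log2 fold change over EV of each of the 10 genes with SRRM4 (red), LSD1+8a (blue) and LSD1 (green), with standard errors from 1 edgeR fit of all 12 libraries; filled points passed an adjusted p under 0.05. The filled points are all SRRM4: 6 above 0, led by BIRC3 at 1.05, and ZC3H12A at -0.23. The 3 contrasts share the EV libraries.

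The effect of SRRM4 was also set directly against that of each LSD1 form, which tests the difference between transfections. Against LSD1+8a, 6 members were higher (4.42% of all genes) and 1 lower (3.17%). BIRC3 (0.64 ± 0.12, adjusted p = 0.000775), RELB (0.85 ± 0.16, adjusted p = 0.000589) and NFKB2 (0.38 ± 0.05, adjusted p = 7.41e-07) passed by edgeR, as did NFKBIB (0.29, adjusted p = 0.0332), NFKBIA (0.18, adjusted p = 0.0330) and NFKBIE (0.38, adjusted p = 0.0492). ZC3H12A was lower (-0.24 ± 0.05, edgeR adjusted p = 0.00274). On the TPM scale BIRC3 did not pass in this comparison (adjusted p = 0.132 and 0.147 in the limma fits) or against LSD1 (0.0624 and 0.0667). Without 1 of the libraries the count of members higher was 3 to 5; it was 3 without LSD1+8a replicate 3, SRRM4 replicate 1 or SRRM4 replicate 2. The call of NFKBIA ended without LSD1+8a replicate 2 or 3 or SRRM4 replicate 1 or 2 (adjusted p from 0.0802 to 0.162). That of NFKBIB ended without LSD1+8a replicate 2 or 3 or any SRRM4 library (0.0564 to 0.128), and that of NFKBIE without LSD1+8a replicate 1 or 3 or any SRRM4 library (0.0818 to 0.175). Under DESeq2 the calls of NFKBIA (adjusted p = 0.156), NFKBIB (0.196) and NFKBIE (0.235) ended too.

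Against LSD1, 5 members were higher (4.38% of all genes) and 1 lower (2.67%). BIRC3 rose by 0.92 ± 0.13 (edgeR adjusted p = 6.40e-06), NFKB2 by 0.41 ± 0.05 (2.00e-07), NFKBIB by 0.43 ± 0.09 (0.00179), RELB by 0.61 ± 0.16 (0.0131) and NFKBIE by 0.41 ± 0.12 (0.0333). ZC3H12A fell by 0.18 (edgeR adjusted p = 0.0295), a call that ended without LSD1 replicate 2 or 3 or SRRM4 replicate 1 or 3 (adjusted p from 0.0582 to 0.180). It also ended under DESeq2 (0.133) and in both TPM fits (limma, 0.0863 and 0.0874). RELB lost its call without LSD1 replicate 2 or 3 or SRRM4 replicate 3 (0.0512 to 0.0745). The call of RELB ended under DESeq2 (0.107) and in both TPM fits (limma, 0.216 and 0.246) as well. NFKBIE lost its call in 5 of the 6 leave-outs, all but that of LSD1 replicate 2 (0.0608 to 0.175). The same held under DESeq2 (0.184) and in both TPM fits (limma, 0.330 and 0.338). Without LSD1 replicate 3 or SRRM4 replicate 3 the count was 3. TNFAIP3 missed the threshold in both direct comparisons, at 0.41 (edgeR adjusted p = 0.126) and 0.43 (0.116). The 2 direct comparisons share the SRRM4 libraries with each other and with the comparison against EV.

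The make-up of the subunit pool followed from these levels and is given without a test. NFKB2 and RELB together made up 27.3%, 28.4% and 28.6% of the summed TPM of the 4 subunits in the EV libraries and 33.5%, 34.8% and 34.98% with SRRM4. The SRRM4 libraries were above all 9 others, whose highest was an LSD1 library at 31.96%. LSD1 averaged 29.8% ± 1.86 and LSD1+8a 29.3% ± 1.34 (SD, n = 3 each). RELB was 3.98% ± 0.347 of RELA with EV and 6.74% ± 0.567 with SRRM4, and NFKB2 per NFKB1 was 1.05 ± 0.099 and 1.39 ± 0.0706. The summed subunits stood at 120 ± 2.14 TPM with EV and 141 ± 0.78 with SRRM4.

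Inhibitor transcripts per subunit transcript overlapped between EV and SRRM4. The 3 IkB genes summed to 67.2 ± 3.54 TPM with EV and 80.6 ± 2.15 with SRRM4. Per TPM of subunit this was 0.568, 0.527 and 0.585 with EV and 0.553, 0.584 and 0.580 with SRRM4, with neither group above the other. The ratio was 0.562 ± 0.0308 with LSD1 and 0.509 ± 0.0259 with LSD1+8a, whose highest library (0.527) met the lowest of EV.

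**Figure D4:**
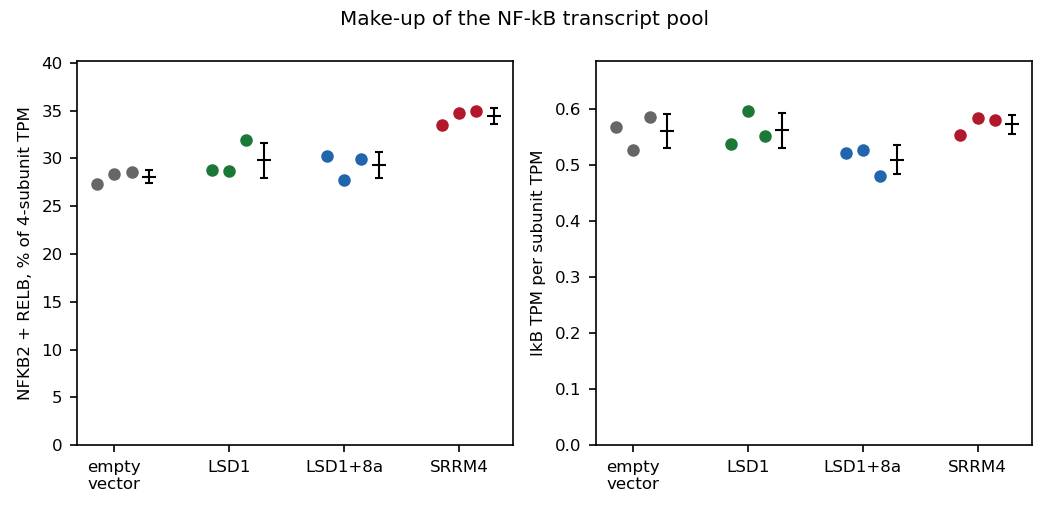
Left: share of NFKB2 and RELB in the summed TPM of NFKB1, RELA, NFKB2 and RELB, in percent. Right: summed TPM of NFKBIA, NFKBIB and NFKBIE per TPM of those subunits. Points are libraries, black bars the group mean and SD (n = 3), and both axes start at 0; on the left the SRRM4 points (33.5% to 34.98%) are above all others and on the right the SRRM4 and EV points overlap.

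Genes of 5 other pathway lists, also chosen with earlier results of these data known, were set beside the members. Of the 74 measured, 9 were called higher with SRRM4 against EV (12.2%, where all genes stood at 4.47%). Another 2 were lower (2.7%, where all genes stood at 3.22%). Of 4 other subunits and nuclear IkB proteins (REL, BCL3, NFKBIZ and NFKBID) 1 was higher: BCL3, a co-activator of p50 and p52 dimers (0.33 ± 0.10, edgeR adjusted p = 0.0463). NFKBIZ (0.47 ± 0.16) did not pass (edgeR adjusted p = 0.0602). The median of these 4 was 0.30. The kinase list held 11 genes: IkB kinase subunits, related and upstream kinases, and the adaptors TAB1, TAB2 and TAB3. Of these 11, 1 was higher, MAP3K14 or NIK, from 32.3 ± 0.586 to 41.6 ± 1.72 CPM (0.37 ± 0.06, edgeR adjusted p = 5.36e-05). The IkB kinase subunits IKBKB (0.05), CHUK (0.23) and IKBKG (0.15) did not pass, and the median of the list was 0.02.

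Of 27 receptors and adaptors 21 were measured and 2 were higher, with a median of 0.01. TNFRSF12A, the TWEAK receptor Fn14, went from 11.7 ± 0.875 to 19.5 ± 0.71 CPM (0.74 ± 0.09, edgeR adjusted p = 3.06e-07). BCL10, an adaptor of antigen-receptor signalling, was higher by 0.27 ± 0.08 (edgeR adjusted p = 0.0378). TNFRSF1A, the main TNF receptor, and LTBR, the lymphotoxin beta receptor, stood at 0.02 and 0.00 (adjusted p = 0.833 and 0.970 by edgeR). Of 19 ubiquitin enzymes and brakes 17 were measured (median 0.06), with 1 higher and 1 lower. NLRC5, a regulator of MHC class I genes that also restrains IkB kinase, was higher by 0.86 ± 0.11 (edgeR adjusted p = 1.72e-06). TAX1BP1, an adaptor of A20, fell by 0.24 (edgeR adjusted p = 0.000884).

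Of 50 inducible targets, mostly cytokines, adhesion and survival genes, 21 were measured. 4 were higher and 1 lower, and the median was 0.01. TRIP10, a membrane-curving adaptor, rose by 0.60 ± 0.08 (edgeR adjusted p = 1.35e-06), CD82, a tetraspanin, by 0.57 ± 0.09 (5.19e-05), JUNB, an AP-1 subunit, by 0.41 ± 0.07 (9.04e-05), and IRF1, an interferon regulatory factor, by 0.49 ± 0.15 (0.0318). EFNA1, an ephrin ligand, fell by 0.19 (edgeR adjusted p = 0.00174). With LSD1+8a against EV, LSD1 against EV and LSD1+8a against LSD1, 0 genes of these 5 lists were called by edgeR. At an unadjusted p under 0.05 the first comparison had 5 of the 21 inducible targets, of which 3 were higher and 2 lower. It also had 2 receptors and adaptors, both higher, and NLRC5 (0.34, edgeR adjusted p = 0.479). Many genes lay under that p: SAT1, the last of the 5 inducible targets (edgeR unadjusted p = 0.0438), ranked 772 among the 13001 genes.

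**Figure D5:**
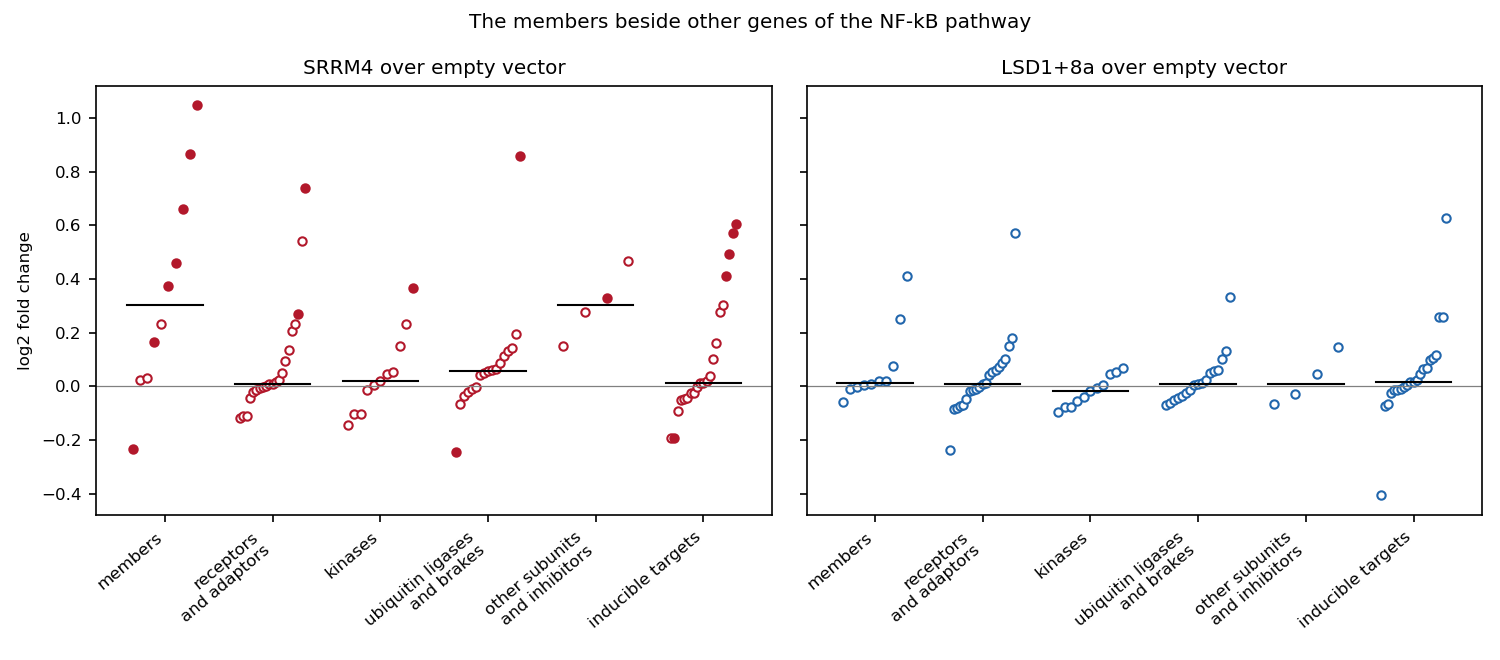
log2 fold change over EV of the 10 genes (members) and of the measured genes of 5 other pathway lists, with SRRM4 on the left and LSD1+8a on the right; each point is a gene, filled where the adjusted p was under 0.05, and bars mark list medians. With SRRM4 the median is 0.30 for the 10 genes and for the 4 other subunits and inhibitors, and between 0.01 and 0.06 for the other 4 lists; no point is filled with LSD1+8a. Both panels share the EV libraries.

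Interferon-stimulated genes, an antiviral programme whose induction can overlap with that of NF-kB, are given for contrast. The list was also chosen with earlier results of these data known. Of 20 listed and measured genes, 17 were higher with SRRM4 (median 1.02) and 17 with LSD1+8a (median 1.26) against EV, and 3 with LSD1 (median 0.36). Among all genes 4.47% were called higher with SRRM4. With LSD1+8a 0.346% and with LSD1 0.1% of all genes were called in either direction. In SRRM4 against LSD1+8a, the test in which 6 of the 10 NF-kB genes were higher and 1 lower, 2 of the 20 interferon-stimulated genes were higher and 6 lower (median -0.14). Of all genes 4.42% were higher and 3.17% lower in that test. The part of the interferon-stimulated genes in the changes of the NF-kB genes was not tested.

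The genes nearest to BIRC3, RELB and NFKB2 in profile were found by Euclidean distance over the 12 libraries of log2 CPM centred on the EV mean, among 12986 genes. Nearest to BIRC3 were the unnamed locus RP11-295D4.1 (0.690), ID3 (0.784), an inhibitor of helix-loop-helix factors, and TNFRSF12A (0.870), where the median gene was at 2.05. Nearest to RELB were CRIP2, a LIM-domain protein (0.407), TNFRSF12A (0.462) and PROCR, the protein C receptor (0.465), with a median of 1.57. Nearest to NFKB2 were NR4A1, an orphan nuclear receptor (0.184), TMEM2, a cell-surface hyaluronidase (0.232), and DUSP8, a MAP kinase phosphatase (0.247), with a median of 0.900. All of them were among the genes called higher with SRRM4, and the distance uses the same libraries.

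For NFKBIE and BIRC3 the gap between EV and SRRM4 was not of the same size in TPM as in CPM. The TPM of NFKBIE was 3.96, 4.75 and 4.69 with EV, 7.11, 9.59 and 6.58 with SRRM4 and 5.30, 7.50 and 5.16 with LSD1, a wider gap than in CPM. The log2 ratio of TPM to CPM, which moves with the transcript lengths in the estimate, was higher with SRRM4 by 0.40 ± 0.16, but this did not pass a limma test over all genes (adjusted p = 0.696). With LSD1 against EV it was higher by 0.44 ± 0.16, also not past the threshold (limma adjusted p = 0.494). SRRM4 replicate 2 had a TPM per CPM of 0.975, against 0.666 and 0.625 in SRRM4 replicates 1 and 3. For BIRC3 the ratio was lower with SRRM4 by a log2 difference of -0.25 ± 0.09, which did not pass either (limma adjusted p = 0.667). These ratios were looked at after the values were seen.

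The authors' deposited table of SRRM4 against EV listed NFKB2 (adjusted p = 7.92e-11), BIRC3 (3.85e-08) and RELB (0.00533) past 0.05 and higher, and ZC3H12A (0.0212) lower. In the same authors' deposited table TNFAIP3 (0.0526), NFKBIA (0.196) and NFKBIE (0.231) were not past it. For this comparison these values match those of the DESeq2 alternative given above, so the 2 are not separate evidence. The authors' deposited table for LSD1+8a listed 0 of the 10 past 0.05, and that for LSD1 gave no adjusted p for any of them.

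The SRRM4 libraries held 10876293 to 11485489 counts, fewer than the EV libraries (12750609 to 13570740), and the LSD1 and LSD1+8a libraries held 11658730 to 13359671. The mitochondrial share was 6.63% to 6.89% with SRRM4 and 7.21% to 7.40% with EV, without overlap. It was also below EV with LSD1 (6.38% to 6.67%) and LSD1+8a (6.64% to 7.12%). The part of depth and of this share in the changes above was not tested. KDM1A was at 92.0 to 100 CPM with SRRM4. All 11 luminal markers of LNCaP cells were measured, KLK3 among them at 2681 to 3431 TPM. Their summed level was 6050 to 6083 TPM with SRRM4, below all EV libraries (6610 to 6702), with 5 of 11 called lower and 1 higher. In bulk RNA, fewer cells of a state and less RNA per cell cannot be told apart. Of 10 leukocyte markers 1 was listed, CD68, at 3.52 to 7.72 TPM, and of 10 endothelial and fibroblast markers 3, summing to 10.9 to 15.2 TPM; the others, PTPRC and PECAM1 included, were not among the listed genes. The transcript of SRRM4 itself is not analysed here, so the SRRM4 label had no direct check.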

How the data were processed

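LNCaP polyA RNA was sequenced in 12 libraries, 3 each of EV, LSD1, LSD1+8a and SRRM4. The authors deposited gene counts and TPM for 13001 genes, and tables of log2 fold changes with p-values and adjusted p-values, per the file headers, whose column names are those of DESeq2. STAR 2.5.3a, RSEM 1.2.31 and the hg19 build are named, without roles, per the submitters' processing notes. Which tool made the counts, and whether strand was used, is not given in the sources used here. The deposited counts are whole numbers per gene. The members and gene lists were chosen with earlier results of these data known.

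The main test was edgeR 4.0.16 (R 4.3.3): TMM scaling, filterByExpr and the robust quasi-likelihood F test in 1 model of the 4 groups, with Benjamini-Hochberg adjustment over all genes and a threshold of 0.05. The median all-gene change was within 0.1 of 0 under each scaling. Alternatives were other scalings and filters, DESeq2 1.42.0, limma 3.58.1 (voom on counts, and limma-trend on TPM in log2 after adding 1 or 0.1), a replicate block, a fit of only the groups compared, and leaving out each library. Scripts were tested on simulated data. Replicate pairs differed beyond sampling noise, with a chi-square per degree of freedom of 1.44 to 2.88 over 12 pairs. The text names all members, the other pathway genes called in SRRM4, LSD1+8a or LSD1 against EV or in LSD1+8a against LSD1 (at most 5 a list), and the 3 nearest profiles of BIRC3, RELB and NFKB2. Other pathway genes named were chosen after their values were seen. Promoter windows came from RefSeq on GRCh38.p14, not the hg19 build the submitters name.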

Additional observations from a re-analysis of the deposited data

How the results depend on the processing

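For SRRM4 against EV the sign of each of the 170 values of the 10 genes under the alternatives was kept. BIRC3 (0.62 to 1.20), RELB (0.65 to 0.91) and NFKB2 (0.45 to 0.50) passed in all 17, ZC3H12A in 15, TNFAIP3 in 12, NFKBIE in 8, NFKBIA in 6, NFKBIB in 1, and RELA and NFKB1 in 0. These tallies include near copies of the main fit. The run without a filter repeated it, since the filter removed no gene. The stricter filter kept 12999 genes and the run without KDM1A 13000, each with 581 higher and 419 lower. The count of 6 higher fell to 3 with DESeq2 and was 3 to 6 without 1 library. The 1 lower became 0 in both TPM fits. For SRRM4 against LSD1+8a the 6 higher became 3 with DESeq2, 2 in both TPM fits and 3 to 5 without 1 library, and the 1 lower became 0 in both TPM fits. For SRRM4 against LSD1 the 5 higher became 3 with DESeq2, 2 in both TPM fits and 3 to 4 without 1 library, and the 1 lower became 0 with DESeq2 and in both TPM fits and 0 to 1 without 1 library. The TPM fits change unit and test together, and the cause was not tested. The comparisons among EV, LSD1 and LSD1+8a kept 0 calls in the 10 genes in every alternative run; signs changed in 20, 9 and 13 of 170 values, all in genes not called. RELA in LSD1 against EV went from -0.07 to 0.00095 and 0.00094 in the TPM fits.

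Over all genes, 581 higher and 418 lower with SRRM4 against EV (58.2% higher) became 497 and 561 (47.0% higher) with upper-quartile factors, 254 and 73 (77.7%) with TPM plus 1, and 328 and 235 with DESeq2. The replicate numbers were not taken to pair the libraries, since in no comparison did every same-numbered pair of deviations correlate above 0.1: the values were -0.06 to 0.07 for SRRM4 and EV and -0.16 to -0.09 for LSD1 and EV. For LSD1+8a and EV they were 0.08 to 0.14, each above the other pairs (-0.11 to 0.01), a hint from the data only. With the replicate block 518 genes were higher and 369 lower, and 4 members were higher, NFKBIA (adjusted p = 0.0606) and NFKBIE (0.0556) losing their calls. Depth limits RELB, TNFAIP3, NFKBIE and BIRC3 most, at 42 to 205 counts a library.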
